A study of Mus musculus with 22 samples.

Results

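Fear conditioning was compared with home cage housing in ribosome-bound RNA pulled down from the dendritic layer of hippocampal area CA1 of the mouse. The comparison uses the 8 samples whose labels give dendrite as location and immunoprecipitate as fraction, out of 22 in all. They are 4 libraries, 2 from fear conditioned and 2 from home cage mice, each run once paired-end and once single-end; a library with its pair of runs was taken as 1 replicate. The other samples, immunoprecipitates of the cell body layer (soma) and supernatants left after the pulldown, served as context. The soma immunoprecipitates also entered the scaling, the choice of genes tested and the spread behind every standard error and p-value. All mice of both behaviours were Camk2a-tTA/tetO-EGFP-L10a double transgenics on a C57BL/6 background. In these mice the Camk2a promoter drives a transactivator (tTA) that turns on ribosomal protein L10a fused to EGFP, so the tag is limited to neurons in which that promoter is active, mainly excitatory ones. The antibody HtzGFP-19C8, which recognises GFP, was used for the pulldown. The labels give no age, training protocol, time between training and dissection or number of animals, and nothing in them says that the libraries came from separate animals. The p-values may therefore measure only the spread between these samples, which may be technical.

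Fear conditioning pairs a place or a cue with a foot shock, and the memory of the place depends on the hippocampus. Pyramidal neurons of CA1 carry ribosomes and a subset of mRNAs in their dendrites, far from the nucleus, and proteins made there can change synapses near the site of translation. Pulling down tagged ribosomes from a dissected dendritic layer reads which mRNAs are bound to ribosomes there. That layer also holds glia, blood vessels, interneurons and passing axons, whose RNA can enter a pulldown without being bound to a tagged ribosome. In such bulk samples, fewer cells or processes and less RNA per cell cannot be told apart.

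The dendrite libraries were uneven in depth and in the number of genes they listed. The deposited values are FPKM, fragments per kilobase of transcript and per M mapped fragments, over the 5′ UTR, coding sequence and start of the 3′ UTR of 29848 genes. Spacing of the low values put the paired-end runs at 5.70 and 17.6 M fragments for home cage libraries 1 and 2 and at 21.2 and 18.5 M for fear conditioned libraries 1 and 2. They listed 3344, 4695, 12205 and 6147 genes above 0 in that order. Single-end runs came to 2.24, 0.515, 2.78 and 2.75 M reads, with 2630, 2235, 6415 and 4623 genes. Both fear conditioned libraries listed more genes than either home cage library in both tables. Fear conditioned library 1 stood apart in the paired-end table: Mir135b took 26.9% of its summed FPKM, and across genes, which are not independent replicates, its r with the home cage dendrite supernatant was 0.794 (0.555 in the single-end table), against 0.550 with fear conditioned library 2. In the single-end table the other libraries were dominated by the row Gm3168. It took 65.9% and 41.9% of home cage libraries 1 and 2 and 45.6% of fear conditioned library 2. The top row of fear conditioned library 1 took 9.39% there. The r between both home cage libraries was 0.438, and between libraries of different behaviour 0.430 to 0.525. Between the 2 runs of a library it was 0.622 to 0.705.

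**Figure D1:**
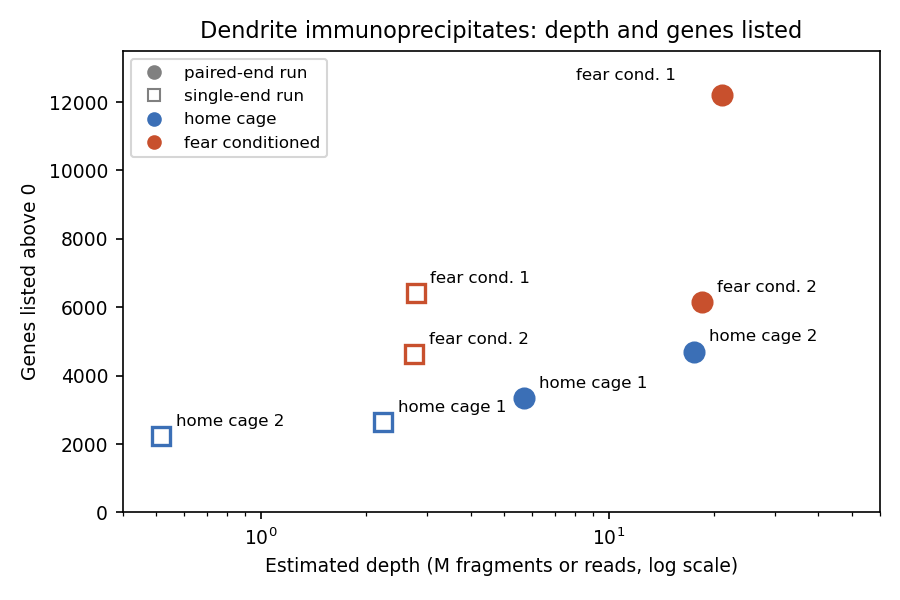
Number of genes listed above 0 (y axis) against estimated depth in M fragments or reads (x axis, log scale) for the 4 dendrite immunoprecipitates, with filled circles for paired-end and open squares for single-end runs, blue for home cage and red for fear conditioned. The paired-end run of fear conditioned library 1 lists 12205 genes at 21.2 M fragments, while fear conditioned library 2 lists 6147 at 18.5 M and home cage library 2 lists 4695 at 17.6 M.

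Replicates of one behaviour lay about as far from each other as libraries of different behaviours. All levels below are scaled FPKM, that is FPKM divided by the median ratio of each library to the geometric mean of all 8 immunoprecipitates, and differences are on the log2(scaled FPKM + 1) scale, which understates the change of low genes. Over the 360 tested genes with a mean level of at least 10 in the dendrite libraries, the median absolute log2 difference was 2.59 between the home cage libraries and 1.25 between the fear conditioned ones. Between a home cage and a fear conditioned library it was 1.54 to 2.37. Between both runs of a single library it was 0.68 to 1.25. The excitatory marker Camk2a was above 50 in all 4 libraries and in both runs, as described below. Of the list of 18 CA1 pyramidal markers, 5 and 9 were above 0 in home cage libraries 1 and 2 and 16 and 10 in fear conditioned libraries 1 and 2, in the paired-end table. Over all genes these counts were 3344, 4695, 12205 and 6147 in that order. Mpped1 was at 314 in the single-end run of home cage library 1 and at 13.0 or less in all other runs, and Slc17a7, the vesicular glutamate transporter, was at 0 and 1.85 in home cage and 1.75 and 14.2 in fear conditioned libraries. Emx1 and Nov were listed at 0 in every run; genes that most cells use, such as Polr1d and Rpl39, were also listed at 0 in both home cage libraries, so a 0 does not show that a gene was absent.

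No gene passed the test for a fear conditioning effect in dendrite. By limma, at an adjusted p of 0.05, 0 of 2928 genes tested (0.0%) differed, and robust moderation also gave 0; the smallest adjusted p was 0.944. At an unadjusted p under 0.05 there were 96 genes (3.28%), below the share of 0.05 that such a p gives when no gene differs. Of these, 57 were higher (1.95%) and 39 lower (1.33%) after fear conditioning. That split moved with the scaling: it was 182 higher and 30 lower with FPKM as deposited, and 202 and 13 with scaling by the 75th percentile. It also turned with single libraries: without home cage library 1 it was 19 higher and 265 lower, without home cage library 2 it was 20 and 190, and without fear conditioned libraries 1 and 2 in turn it was 208 and 25, and 71 and 12. The median difference over all genes tested was 0.08, and 0.47 and 0.65 under those scalings, so directions are relative to this shift. Of the 96 genes, 84 kept their sign in the single-end table, 53 of the higher and 31 of the lower ones. The median standard error of a gene's difference was 1.29, and an exact permutation test of 2 libraries against 2 cannot give a p below 0.333. The direction of single genes is therefore given below as whether the libraries of the groups overlap, with both runs beside each other.

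**Figure D2:**
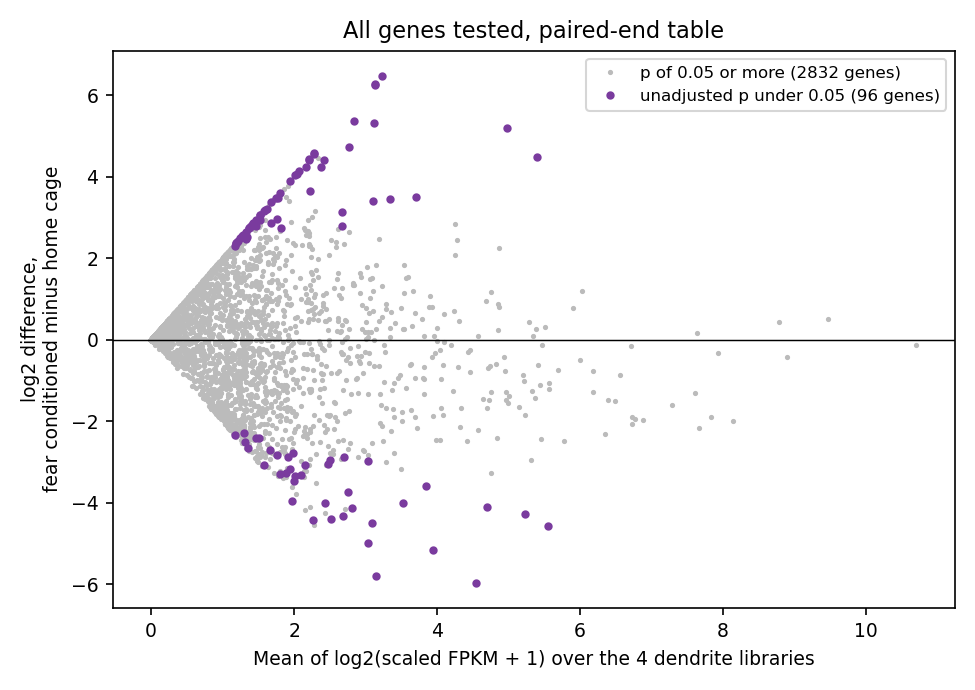
Difference between fear conditioned and home cage dendrite immunoprecipitates (y axis, log2) against the mean level over the 4 libraries (x axis, log2(scaled FPKM + 1)) for the 2928 genes tested in the paired-end table. The 96 genes at an unadjusted p under 0.05 (purple) lie at the upper and lower edges of the cloud, and none of them passed after adjustment.

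More genes stood higher than lower in both fear conditioned libraries. In the paired-end table a total of 717 genes (24.5%) were higher in both fear conditioned libraries than in either home cage library, and 252 (8.61%) were lower. With 2 libraries against 2, a gene that stands apart has an exact permutation p of 0.333. Standing apart is therefore by itself no sign of an effect. The single-end table gave 599 (20.5%) and 199 (6.8%). A total of 324 genes (11.1%) were higher and 77 (2.63%) lower in both tables, and 19 genes (0.649%) went opposite ways. Of the 324, 222 had a level under 1 in at least 1 fear conditioned run, and of the 77, 21 had such a level in a home cage run. With a gap of at least 1 on the log2 scale the counts were 51 and 24. With FPKM as deposited they were 408 and 49, and with 75th percentile scaling 495 and 30. Both runs carry the same library name, so a match between them is no second experiment.

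More genes were also detected after fear conditioning alone than in the home cage alone. In paired-end runs, 1929 genes were above 0 in both fear conditioned libraries while the home cage pair listed them at 0, and 23 had the reverse pattern. Counting only genes with at least 3 estimated reads gave 1622 and 18. The single-end table gave 1194 and 35, and 746 and 27 with at least 3 reads. A total of 1668 genes were above 0 in all 4 paired-end runs. Home cage library 1 was the shallowest paired-end library and home cage library 2 the shallowest single-end one; how far depth sets these counts was not tested.

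The largest positive differences among genes at an unadjusted p under 0.05 included metabolic, synaptic and signalling genes. Each of the 31 genes named for the size of its difference or its separation, here and in the next paragraphs, had a limma adjusted p of 0.944. Coordinates are in the mm9 build and span the measured part of the longest model of each gene in the authors' annotation. Mt2, which encodes a metallothionein, a small protein that binds zinc and copper (chromosome 8, 96696518 to 96697467), had 0 in each home cage library, and 14.7 and 28.2 after fear conditioning. Its single-end runs gave 0 in both home cage libraries and 11.6 and 24.5, so both tables separated the groups (log2 4.42, SE 1.11). About 399 and 535 fragments stood behind the fear conditioned values. The supernatants, as deposited, held Mt2 at 26.5 for home cage and 77.03 for fear conditioned dendrite. Vsnl1, a neuronal calcium sensor (chromosome 12, 11332051 to 11443455), was at 0.174 and 0.05004 in home cage and at 28.4 and 70.5 in fear conditioned libraries (log2 5.37, SE 1.72). Its single-end values were 0 in both home cage libraries and 7.19 and 4.68 after fear conditioning, lower than in the paired-end runs but again without overlap. Gnai2, an inhibitory G protein alpha subunit (chromosome 9, 107516469 to 107537673), was at 0.129 and 0.186 against 4.02 and 119, and at 0 in both against 0.8405 and 8.75 in the single-end runs. Pdhb, a subunit of pyruvate dehydrogenase (chromosome 14, 8998505 to 9005506), was at 0.528 and 0.152 against 1.52 and 484, so that fear conditioned library 2 alone carried the high level. The single-end run of that library gave 8.73, against 5.16 in fear conditioned library 1 and 0 in both home cage libraries. Zbp1, an innate immune sensor of Z-form nucleic acids (chromosome 2, 173032114 to 173044423), was at 0 and 0.915 against 23.3 and 123, and at 0 in both against 2.03 and 7.48 in the single-end runs. Polr1d, a subunit shared by RNA polymerases I and III (chromosome 5, 147889117 to 147922935), was at 0 in both home cage libraries in both tables. Its fear conditioned values were 3.55 and 123 in paired-end and 52.2 and 4.62 in single-end runs, so the runs disagreed on which library was higher. The unannotated cDNA row AK220016 was at 2.79 and 19.9 against 50.8 and 766, and at 11.5 and 21.1 against 50.2 and 104 in the single-end runs, without overlap.

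For 4 of the 12 genes so named on the higher side the single-end runs did not keep the groups apart. Snap25, a SNARE protein of the presynaptic membrane, was at 5.301 and 3.26 in home cage and 41.1 and 861 in fear conditioned libraries (log2 5.20, SE 1.77). Its single-end runs gave 57.7 and 1.45 against 10.6 and 37.1, so home cage library 1 was the highest there (log2 0.81). Ndufa4, a respiratory chain subunit (chromosome 6, 11850373 to 11857446), had 0 in each home cage library and 4.41 and 1069 after conditioning, with single-end values of 9.32 and 0 and 3.39 and 24.7. Its high level rested on the paired-end run of fear conditioned library 2. AK163440, a row on the mitochondrial chromosome, had 0 in each home cage library and 147 and 51.9 after conditioning, while the single-end run of home cage library 1 gave 169. Gstm5, a glutathione transferase, was at 0 and 0.0618 against 2.48 and 108, with single-end values of 0 and 1.698 against 1.66 and 2.85. Mitochondrial rows and members of gene families can share reads with near-identical copies, so AK163440 and Gstm5 are uncertain.

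**Figure D3:**
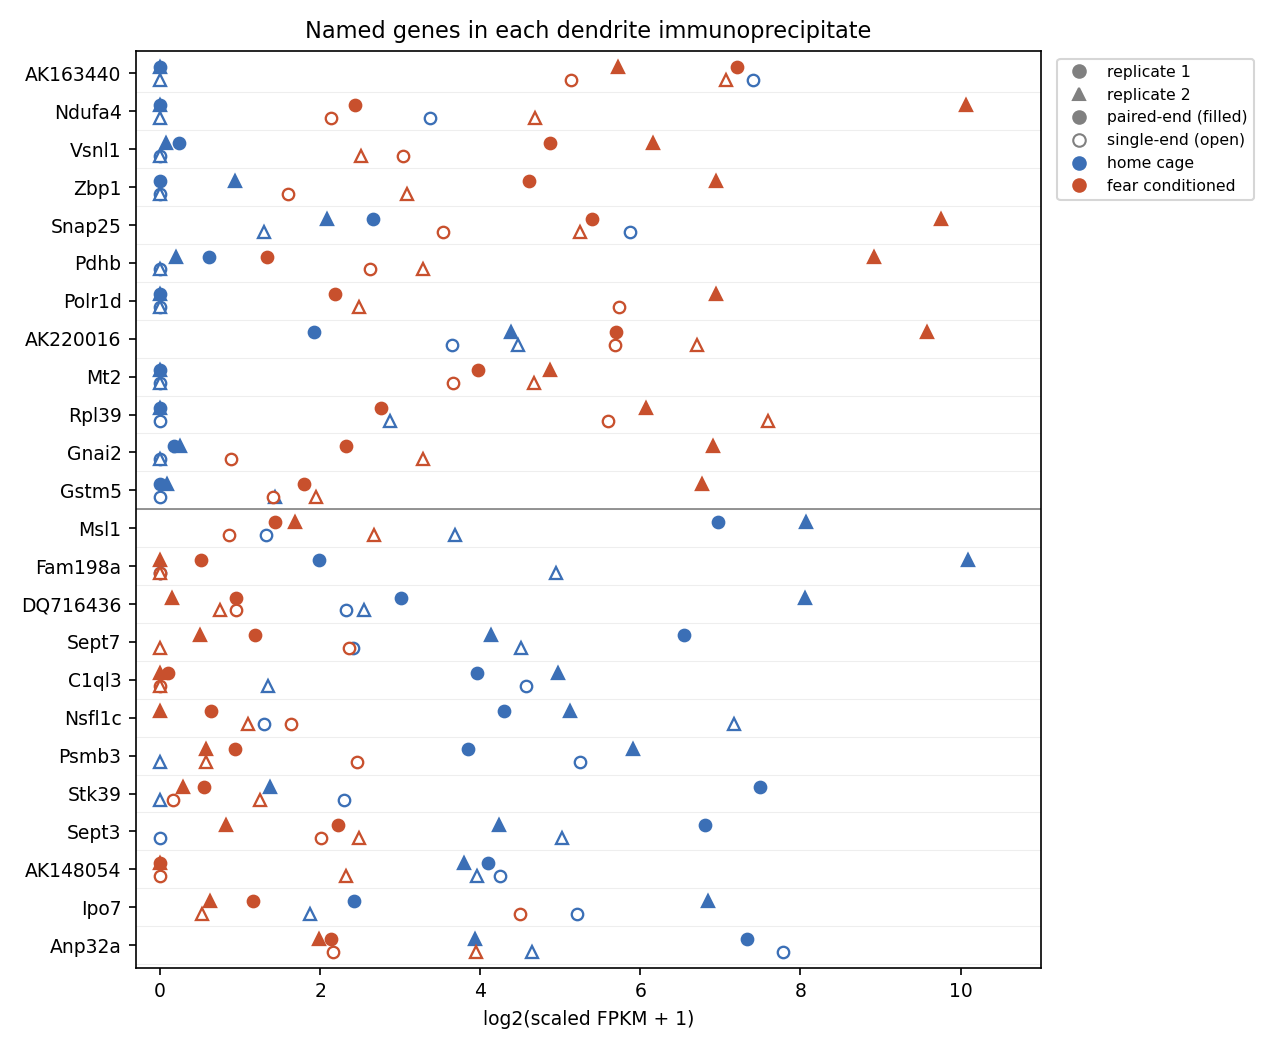
Level of the 24 genes named for the size of their difference in each dendrite immunoprecipitate, on the log2(scaled FPKM + 1) scale, with 12 higher genes above the line and 12 lower genes below it. Filled symbols are paired-end and open ones single-end runs, circles replicate 1 and triangles replicate 2, blue home cage and red fear conditioned. The naming rule required no overlap in the paired-end table and the same sign in the single-end table. It thus raises the count of genes without overlap in both tables, here 8 of the 12 higher and 5 of the 12 lower ones. Of all genes tested, 11.1% were higher and 2.63% lower without overlap in both tables.

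Under the same rule, the largest negative differences included genes of synapse organisation, septins and nuclear proteins. Ddx3x, described below, was left out for its opposite sign in the single-end runs. C1ql3, a secreted protein that organises synapses (chromosome 2, 12923514 to 12932491), was at 14.6 and 30.4 in the home cage libraries and at 0.0731 and 0 after fear conditioning (log2 -4.42, SE 1.06). Its single-end runs gave 22.8 and 1.54 against 0 in both fear conditioned libraries. In the paired-end runs about 88.7 and 633 fragments stood behind the home cage values and 3.51 and 0 behind the fear conditioned ones. In the single-end runs about 38.1 and 1.15 reads stood behind the home cage values. Both tables kept the groups apart, but the single-end value of home cage library 2 rested on hardly any reads. Sept7, a septin of the filaments found at the base of dendritic spines, was at 92.4 and 16.6 against 1.28 and 0.411. In the single-end runs Sept7 was at 4.304 and 21.9 against 4.12 and 0, so both libraries numbered 1 were nearly equal there. Anp32a, an acidic nuclear phosphoprotein (chromosome 9, 62189150 to 62226609), was at 159.6 and 14.3 against 3.4 and 2.95, and at 219 and 24.1 against 3.48 and 14.5 in the single-end runs. DQ716436 was at 7.02 and 265 against 0.933 and 0.109, with home cage library 2 carrying the high level, and at 3.99 and 4.86 against 0.922 and 0.685 in the single-end runs. AK148054 was at 16.1 and 12.9 against 4.04e-08 and 1.10e-06 in the fear conditioned libraries, and at 18.04 and 14.6 against 5.34e-06 and 3.99 in the single-end runs. The paired-end fear conditioned values correspond to about 5.93e-06 and 1.12e-04 fragments, which are not whole reads. Whether reads of this row were assigned to another row was not tested, so AK148054 is uncertain. These 5 genes were apart in both tables. Of the others, Msl1, a scaffold of a histone acetyltransferase complex (chromosome 11, 98657083 to 98669173), was at 124 and 268 against 1.71 and 2.23, but its single-end values of 1.51 and 11.8 and 0.822 and 5.36 overlapped. Nsfl1c, a cofactor of the ATPase p97 in membrane fusion, was at 18.7 and 33.8 against 0.5603 and 0, and at 1.46 and 143 against 2.12 and 1.15 in the single-end runs. Overlap in the single-end runs was also seen for Psmb3, a proteasome subunit, for Stk39, a kinase of chloride cotransporters, for the septin Sept3, for the nuclear import receptor Ipo7 and for Fam198a. Fam198a was at 2.96 and 1089.6 against 0.423 and 0 and Stk39 at 179 and 1.58 against 0.463 and 0.222, so a single home cage library carried each. Over the remainder of the 3′ UTR, which the authors measured apart, the sign was reversed for Msl1 (log2 1.53), Sept3 (0.57) and Anp32a (0.13).

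Ranking genes by how far apart the groups stood in both tables, instead of by the size of the difference, brought forward other genes. On the higher side these were Mt2, Polr1d and Rpl39 again, with the cDNA row AK008665, Ndufb9 and Rpl14. Rpl39, a protein of the large ribosomal subunit (chromosome X, 34622515 to 34625179), had 0 in each home cage library and 5.801 and 66.2 after conditioning, with single-end values of 0 and 6.31 against 47.2 and 192. Ndufb9, a subunit of respiratory complex I (chromosome 15, 58765365 to 58771044), was at 0.351 and 0.0995 against 4.36 and 15.8, and at 0 in both against 12.2 and 9.66. All 4 home cage runs were thus at 0.351 or less and all 4 fear conditioned runs at 4.36 or more. On the lower side these were C1ql3 and AK148054 again, with Prepl, Eif3a, Anp32b and Lynx1. Eif3a, the largest subunit of initiation factor eIF3 (chromosome 19, 60837019 to 60866596), was at 44.2 and 37.7 against 7.21 and 9.95, and at 137 and 55.4 against 10.95 and 10.9 in the single-end runs. Its log2 difference was -2.14 (SE 1.66). Anp32b, a relative of Anp32a (chromosome 4, 46463989 to 46485395), was at 175 and 94.5 against 19.6 and 24.9, and at 812 and 100.4 against 25.9 and 35.8. Both genes were thus measured at 7.21 or more in all 8 runs. Prepl, a serine hydrolase, was at 8.85 and 16.1 against 0.472 and 0.602, and at 6.48 and 14.5 against 0.589 and 0.2499 in the single-end runs. Lynx1, a membrane-anchored modulator of nicotinic receptors, was at 15.1 and 22.5 against 1.82 and 6.24, and at 27.3 and 10.5 against 2.73 and 2.67. Over that remainder the difference had the other sign for Prepl (log2 1.63) and Lynx1 (0.55).

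Whether dendrite and soma responded differently was tested with an interaction term in the same fit. By limma 0 of 2928 genes passed (0.0%; smallest adjusted p 0.716) and 102 (3.48%) had an unadjusted p under 0.05, 28 with a more positive and 74 with a more negative difference in dendrite. Over all genes tested the median interaction was -0.57 and the median soma difference 0.43, so this split goes with a general shift. Of these 102, 22 also had an unadjusted p under 0.05 in dendrite. Soma home cage library 2 was dominated by the ribosomal protein gene Rpsa, at 74.0% of its summed FPKM, and its scaled values rest on what was left. Among the 24 genes named for the size of their difference, Sept7 had the smallest interaction p. In soma it was at 1.88 and 0 in home cage and 5.84 and 28.2 in fear conditioned libraries, opposite to dendrite (interaction log2 -7.56, SE 2.17). Zbp1 was at 0.394 and 373 in home cage and 0.133 and 0.0319 in fear conditioned soma, so its interaction of 9.71 (SE 3.06) rested on soma home cage library 2. C1ql3 was at 0 in all 4 soma libraries and Mt2 at 0, 0, 1.28 and 0, all in the paired-end table. Vsnl1 and Snap25 were higher in both fear conditioned soma libraries too. Vsnl1 was at 0.9105 and 38.7 against 148 and 181 and Snap25 at 2.18 and 15.3 against 66.4 and 182. The interaction terms of Vsnl1 and Snap25 were 1.12 (SE 2.43) and 1.25 (SE 2.51).

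**Figure D4:**
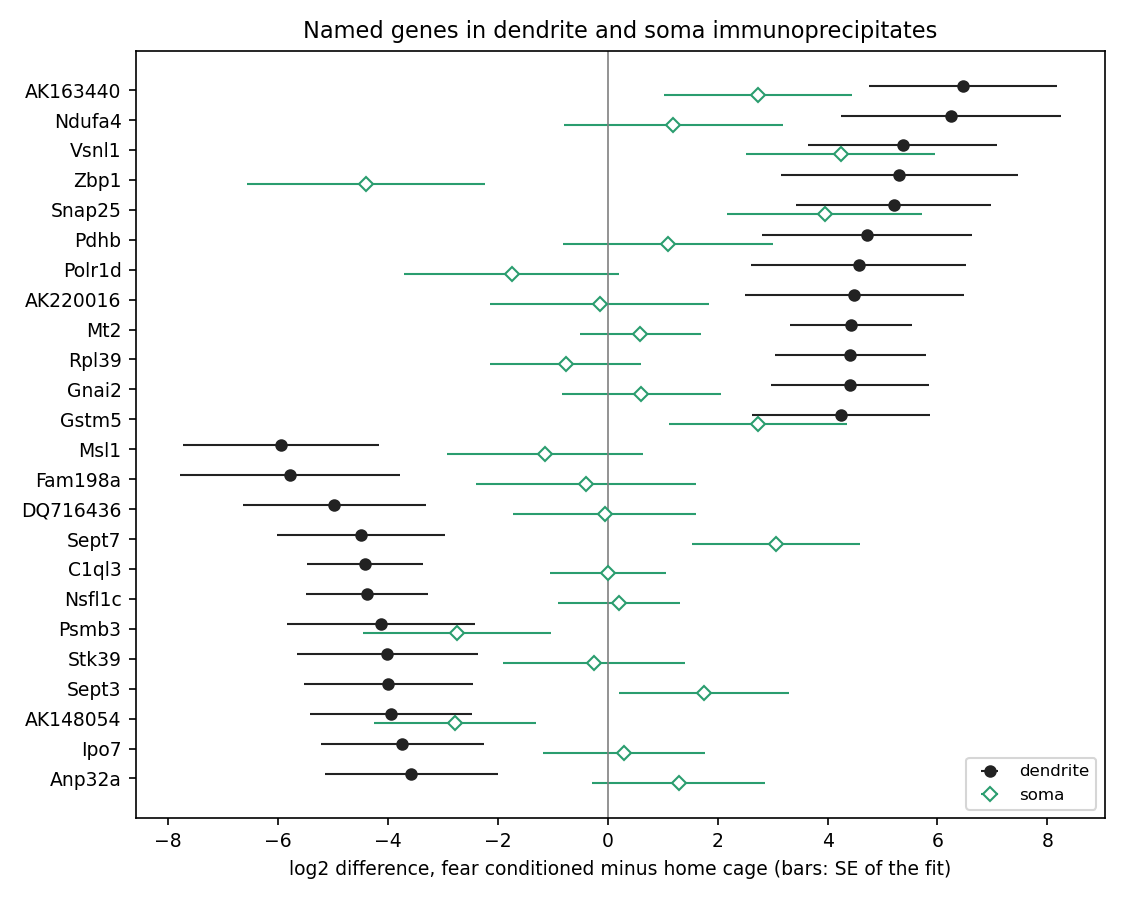
Fear conditioned minus home cage difference (log2, x axis) of the same 24 genes in dendrite (black circles) and soma (green diamonds) immunoprecipitates, with the standard error of the fit as bars. Bars overlap for Vsnl1 and Snap25, whereas Zbp1 and Sept7 have opposite signs in the 2 layers; no interaction passed after adjustment.

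Genes of the presynaptic terminal and of vesicle fusion leaned to higher values. Of 29 tested members 23 had a positive and 6 a negative difference, where 56.7% and 40.6% of all genes tested did, with a median of 0.36 against 0.08 over all genes, and 1 (Snap25) had an unadjusted p under 0.05. Without overlap in both tables stood 4 members higher (13.8%, against 11.1% of all genes) and 0 lower: Syt11, Syp, Syn2 and Pclo, which are named after their values were seen. Without fear conditioned library 1 the median was 0.07, and without home cage library 2 it was 0.76. Vamp2, the vesicle SNARE, was at 18.4 and 229 in home cage and 38.2 and 40.2 in fear conditioned libraries, within the home cage range. Calcium sensors and calmodulin pathway genes had 13 of 19 positive, a median of 0.17 and 2 members apart on the higher side (10.5%, against 11.1% of all genes), Vsnl1 and Hpcal4. The median was 0.87 without home cage library 2 and 0.69 without fear conditioned library 1, and 0 for the same members in the single-end table. Hpcal4, another neuronal calcium sensor (chromosome 4, 122860747 to 122871942), was at 1.51 and 4.88 against 10.7 and 38.3, and at 2.01 and 4.49 against 8.76 and 20.9 in the single-end runs, so it was measured above 1 in every run.

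Postsynaptic genes were split. Among 16 tested scaffolds the median was 0.07, with 1 member apart on the higher side (6.25%) and 2 on the lower (12.5%), against 11.1% and 2.63% of all genes. The median was -1.04 without home cage library 1, -0.14 without fear conditioned library 2 and 0.31 without fear conditioned library 1, so its sign rested on single libraries. Dlgap1, a scaffold that links PSD-95 to Shank, was at 0.1705 and 1.31 in home cage and 6.98 and 25.8 in fear conditioned libraries, and at 0 in both against 1.61 and 24.7 in the single-end runs. Dlgap3, of the same family and a textbook dendritic mRNA (chromosome 4, 126850124 to 126914266), ran the other way, at 15.9 and 6.73 against 2.75 and 1.56, and at 5.28 and 4.18 against 1.92 and 1.85. The second member on the lower side was Lrrc7, named after its values were seen. Dlg4, which encodes PSD-95, was at 24.4 and 32.02 against 4.498 and 49.3, and Shank1 at 31.5 and 82.7 against 9.89 and 31.4. The groups overlapped for Dlg4, and for Shank1 in the single-end table, where fear conditioned library 2 was the highest at 586. Of 12 glutamate and GABA receptor genes the NMDA receptor subunits Grin2a and Grin2b were apart on the higher side, 2 of 12 (16.7%), and the median was 0.10. Both were near 0: Grin2a was at 0.14 or less in every run, and Grin2b at 0.112 and 0 against 0.44 and 2.32. Cnih2, an AMPA receptor auxiliary subunit with the highest level of that list, was at 3.702 and 71.4 against 10.8 and 109. Grin1, the obligate NMDA receptor subunit, was at 1.31 and 1.15 against 1.13 and 14., with fear conditioned library 2 alone above the rest. No voltage-gated ion channel gene, of 18 tested, was apart in both tables, with a median of 0.14; the sodium channel subunit Scn2b was at 0.192 and 0.882 against 24.9 and 0, high in fear conditioned library 1 only.

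mRNAs of the translation machinery were abundant, and their members divided. Of 77 tested cytoplasmic ribosomal protein genes, 45 were positive and 32 negative, with a median of 0.28 in the paired-end and 1.05 in the single-end table. The median was 0.01 without fear conditioned library 1 and -0.02 without fear conditioned library 2. Apart in both tables were 12 on the higher side (15.6%) and 2 on the lower (2.60%), against 11.1% and 2.63% of all genes. Besides Rpl39, Rpl14 was at 0 and 2.48 against 10.3 and 10.4, and at 0 and 0 against 24.5 and 3.41 in the single-end runs. On the lower side, Rps15 was at 578 and 79.7 against 42.9 and 60.01 and Rpl36al at 61.6 and 63.7 against 18.3 and 43.7. Near-identical pseudogenes exist for most ribosomal protein genes, so these values are uncertain where counting split reads. The most abundant member, Rpsa, was at 577 and 615 in home cage and 1259 and 571 in fear conditioned libraries. Rpl10a, whose protein carries the tag as a transgene, was at 3.43 and 12.9 against 16.1 and 16.6, and at 6.86 and 13.4 against 73.6 and 19.5 in the single-end runs. Whether reads of the EGFP-L10a transcript were counted in Rpl10a was not tested. Initiation and elongation factors had 11 of 27 positive and a median of -0.38. It turned to 0.55 with FPKM as deposited and 0.91 with 75th percentile scaling, against 0.47 and 0.65 over all genes tested. The elongation factor Eef1a1 was at 816 and 370. against 236 and 705, with overlap. Eef2, which moves the ribosome along the mRNA, was at 1128 and 160.4 against 69.2 and 130.2, but overlapped in the single-end runs, at 199.8 and 159 against 247 and 166. One factor was apart on the higher side, Eif3i, and 2 on the lower, Eif3a and Eif2s3x, which is 3.70% and 7.41%, against 11.1% and 2.63% of all genes. The median also turned to 0.38 without home cage library 1 and 0.26 without home cage library 2, against 0.15 and 0.28 over all genes tested. Eif3i and Eif2s3x were named after their values were seen.

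Among 32 RNA-binding proteins 16 were positive and the median was 0.03, and 7 were apart on the higher side (21.9%) and 2 on the lower (6.25%). Of all genes tested, 11.1% and 2.63% were apart and 56.7% positive. The median was 0.74 without home cage library 2 and -0.07 without fear conditioned library 1. Those on the higher side included Pcbp2, Purb, Ybx1, Caprin1, Ddx5 and Dhx9, each with a mean paired-end level under 10 in both behaviours and named after their values were seen. Ddx5, an RNA helicase, was at 0.321 and 0.587 in home cage and 6.17 and 2.22 in fear conditioned libraries. Hnrnpa3, an abundant nuclear RNA-binding protein, was at 17.4 and 18.2 against 3.31 and 6.88, and the other lower member was Tardbp. Celf4, a brain RNA-binding protein with the highest level of the list, was at 29.3 and 67.1 against 57.3 and 104 and overlapped (log2 0.78). Its single-end runs were apart on the lower side, at 23.9 and 29.9 against 9.73 and 2.41 (log2 -2.20). The runs thus disagreed on its direction. Ddx3x, an RNA helicase, was at 69.99 and 118 against 3.998 and 0.346 (log2 -5.15, SE 1.36), but at 1.56 and 0.579 against 2.83 and 1.59 in the single-end runs, with the other sign (log2 0.65). Its symbol is annotated on 2 chromosomes, so its reads cannot be placed.

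Nuclear-encoded genes of oxidative phosphorylation had a median of 0.60 over 47 tested members, with 30 positive and 16 negative. The median in the single-end table was 0.64, it was 1.07 with FPKM as deposited and 1.14 with 75th percentile scaling, and leaving out each library in turn gave 0.32 (without fear conditioned library 2) to 0.79. Unadjusted p under 0.05 was reached by 5 members, all higher, where 1.95% of all genes tested were higher and 1.33% lower at that p: Ndufa4, Ndufb9, Ndufc2, Uqcrh and Cox7c. Apart in both tables were 6 on the higher side (12.8%, against 11.1% of all genes) and 0 on the lower. Cox7c, a subunit of cytochrome c oxidase (chromosome 13, 86184403 to 86186400), was at 2.02 and 1.31 in home cage and 24.4 and 29.6 in fear conditioned libraries (log2 3.40, SE 1.55), and at 0 and 1.97 against 2.98 and 13.3 in the single-end runs. Sdhc, a membrane anchor of succinate dehydrogenase, was at 0 and 0.167 against 10.9 and 46.05, and at 0 in both against 0.738 and 2.4. Cox8a, another cytochrome c oxidase subunit, ran the other way, at 39.5 and 58.2 against 19.9 and 18.3, with overlap in the single-end runs. The mitochondrial gene Atpase6 was at 1514 and 2001 against 1414 and 1819. Its symbol is annotated on 2 chromosomes, so its reads cannot be placed. The mitochondrially encoded mt-Nd4 was at 12.9 and 33.9 against 39.96 and 35.6, and its single-end runs overlapped, at 166 and 12.3 against 148 and 109.5. Whether RNA of these 2 mitochondrial rows was bound to tagged ribosomes was not tested.

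Among the functional lists, chaperones and septins had the most negative medians. Heat shock and folding chaperones had 15 of 21 tested members negative and a median of -1.34. With FPKM as deposited it was -0.60 and with 75th percentile scaling -0.19, while the same members had a median of 0.07 in the single-end table. Without home cage library 2 it was 0.19, against 0.28 over all genes tested, so the sign of the median itself rested on that library. Apart on the lower side were 2 members (9.52%, against 2.63% of all genes), Hsp90ab1 and Hspa4, and 0 on the higher side (against 11.1%). Hsp90ab1, the constitutive HSP90 (chromosome 17, 45704727 to 45710210), was at 316 and 144 in home cage and 35.9 and 83.1 in fear conditioned libraries, and at 361 and 297 against 72.2 and 31.2 in the single-end runs (log2 -1.94, SE 1.39). Hspa8, the constitutive HSP70, was at 109 and 41.5 against 25.2 and 23.2, apart in the paired-end table alone. Of 12 septin genes 4 were tested, with a median of -2.32 that was -0.31 with FPKM as deposited, -0.29 with 75th percentile scaling and -4.61 without fear conditioned library 1. Sept3 was at 111 and 17.9 against 3.69 and 0.773, and its single-end values of 0 and 31.4 and 3.04 and 4.61 overlapped, since home cage library 1 had 0 there. Proteasome and ubiquitin genes had a median of 0.05. Psmb4, Psmc1, Ube3a and Nedd4 were apart on the higher side (4 of 29, 13.8%, against 11.1% of all genes). Psma2, Psmc5 and Nedd8 were apart on the lower side (3 of 29, 10.3%, against 2.63% of all genes). Nedd8, a ubiquitin-like modifier, was at 0.482 and 32.2 against 0.298 and 0, so home cage library 2 alone was high. Of these 7, all but Nedd8 were named after their values were seen.

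Medians of the cytoskeletal, transport and signalling lists ran from 0.03 to 0.46, and their shares of members apart on the higher side were 5.26% to 11.1%, against 11.1% of all genes. Actin and spine regulators had a median of 0.30 over 30 members and 2 apart on the higher side (6.67%). Actb, the beta-actin gene whose mRNA is transported in neurons, was at 10.7 and 4.88 against 13.1 and 145, and at 6.71 and 5.35 against 39.3 and 54.96 in the single-end runs. The spine protein gene Ppp1r9b was at 95. and 237 against 14.6 and 184, with overlap. Tubulins and microtubule proteins had 14 of 19 positive, a median of 0.46, which was 0.0045 without fear conditioned library 1, 0.15 without fear conditioned library 2 and 0.85 without home cage library 2, and 1 of 19 apart (Tubb2a), and motor proteins a median of 0.06 and 2 of 19 apart on the higher side (Dync1h1 and Myl12b). Kif5a, a neuronal kinesin, was at 26.2 and 10.3 against 1.81 and 1.014 (log2 -2.88, SE 1.21), but at 1.5 and 45.03 against 1.87 and 12.8 in the single-end runs. Small GTPases had a median of 0.03 and 2 of 19 apart, Rab18 and Arf1; Arf1, a regulator of vesicle coats, was at 0 in both home cage libraries in both tables, at 29.1 and 0.375 in the paired-end and at 6.98 and 10.2 in the single-end fear conditioned runs. Kinases and phosphatases known from memory studies had a median of 0.29, with 2 of 24 apart on the higher side and 1 (Itpka) on the lower. Sodium and proton pumps had a median of 0.32 and 2 of 18 apart (Atp6v0a1 and Atp6v1d). Apart from Actb and Arf1, the members apart in these lists were named after their values were seen.

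**Figure D5:**
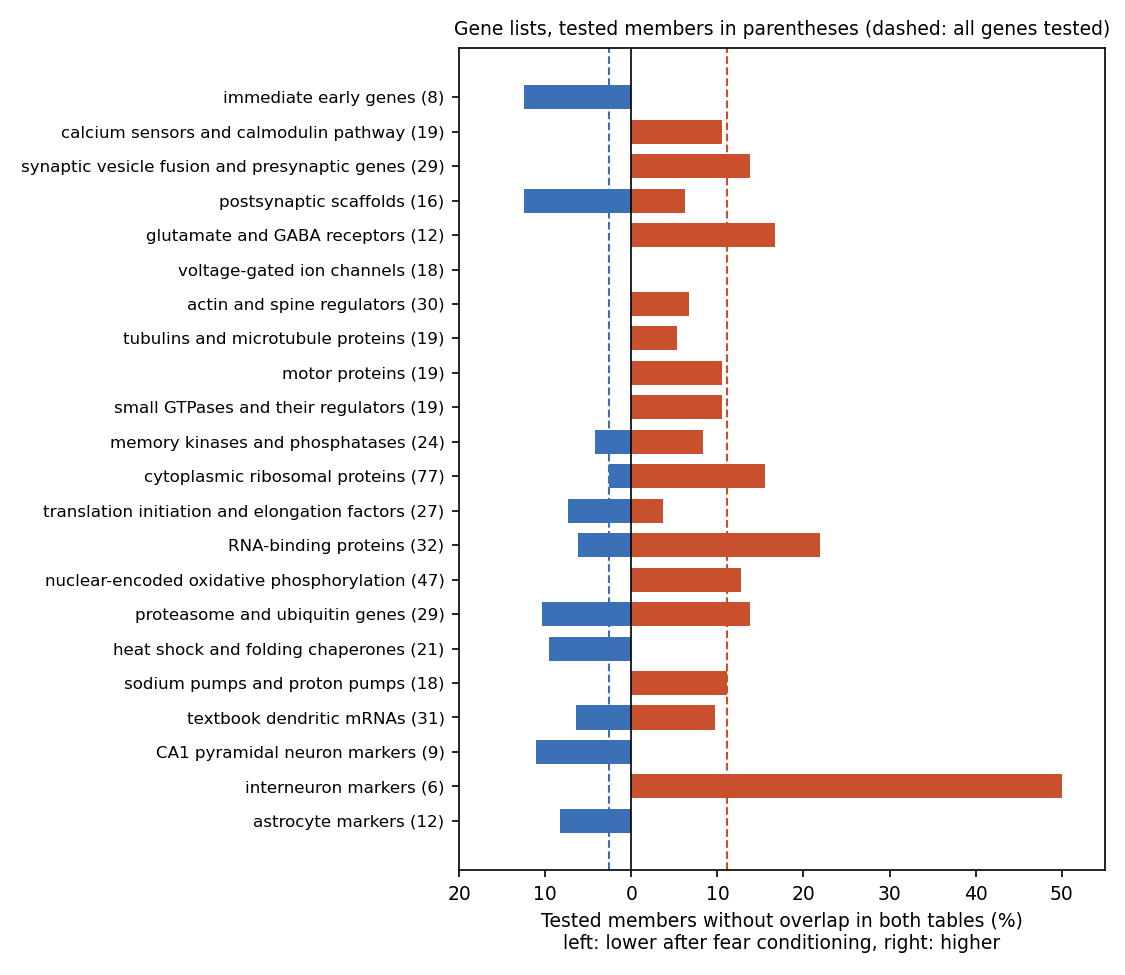
Share of tested members of each gene list with at least 5 tested members that stood apart in both tables, higher after fear conditioning to the right (red) and lower to the left (blue), with the share over all genes tested as dashed lines (11.1% and 2.63%). RNA-binding proteins reach 21.9% on the higher side and the longest bar, for interneuron markers, stands for 3 of 6 genes. Among these, Npy met the minimum for testing only through its fear conditioned values.

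Immediate early genes, which neurons switch on after strong activity, were mostly listed at or near 0 in the dendrite libraries. Of 40 genes 8 were tested, 4 positive and 4 negative, with a median of -0.02. It was 0.22 with FPKM as deposited and 0.31 with 75th percentile scaling, where all genes tested had 0.47 and 0.65. Relative to all genes tested, the median was -0.10, -0.25 and -0.35 in that order. Fos and Npas4 were at 0 in all 4 paired-end runs, and in the single-end runs Fos was at 0.199 in fear conditioned library 2 and at 0 elsewhere. Egr1, Junb, Nr4a1, Homer1 and Bdnf were listed at 0 in each home cage library and reached at most 0.622 in a fear conditioned one in the paired-end table. In the single-end runs Homer1 was at 0.791 in home cage library 1 and at 0 elsewhere, while Junb, Nr4a1 and Bdnf were above 0 in 1 fear conditioned library each. Arc, whose mRNA travels into dendrites after activity (chromosome 15, 74499513 to 74503000), was at 0 and 0.748 in the home cage libraries and at 0.416 and 25.4 after fear conditioning. Its single-end runs gave 0 in both home cage libraries and 0.113 and 3.21, so fear conditioned library 2 was the highest in both tables (log2 2.21, SE 1.35). Fear conditioned library 1 had less Arc than home cage library 2 in the paired-end table, so the groups overlapped. The only member apart in both tables was Ppp1r15a, a stress-induced phosphatase regulator (chromosome 7, 52778288 to 52781516), at 123 and 2.05 in the home cage and 0.253 and 0.0125 in the fear conditioned libraries. This is 1 of 8 on the lower side (12.5%, against 2.63% of all genes), and home cage library 1 alone was high. Its single-end values were 6.82 and 1.13 against 0.0917 and 0.119. About 2.41 reads stood behind home cage library 2 there, against 1.20 in each fear conditioned library. Btg2, an antiproliferative gene, was at 91.7 and 0.307 against 2.48 and 4.44, so home cage library 1 alone was high.

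Textbook dendritic mRNAs were split. Of 31 tested, 14 were positive and 17 negative, with 3 apart on the higher side (9.68%, Actb and Cnksr2 among them) and 2 on the lower (6.45%, Dlgap3 and Itpka), against 11.1% and 2.63% of all genes. Their median was -0.30, against 0.35 with FPKM as deposited and 0.61 with 75th percentile scaling. Relative to all genes tested it was -0.38, -0.13 and -0.05 in that order. Without fear conditioned library 1 the median turned to 0.30, where that of all genes tested was 0. Without home cage library 2 it was 0.20, where that of all genes tested was 0.28. Camk2a, the alpha subunit of calcium/calmodulin-dependent kinase II and the classic dendritic mRNA, was at 58.6 and 586 in home cage and 114 and 382 in fear conditioned libraries. Its single-end runs gave 704 and 205 against 66.7 and 345, so the groups overlapped in both tables (log2 0.17, SE 1.55).

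Markers of other cells of the layer were present in the pulldowns, and more of them were above 0 in fear conditioned library 1 than in the others. The same held for genes of any kind in the paired-end table. Of 29848 genes, 3344 and 4695 were above 0 in home cage libraries 1 and 2, and 12205 and 6147 in fear conditioned libraries 1 and 2. The marker counts are therefore no result about these cells. Of 20 astrocyte markers, 14 and 16 were above 0 in home cage libraries 1 and 2 and 20 and 14 in fear conditioned libraries 1 and 2. Their summed level was 263 and 302 in the home cage and 239 and 159 in the fear conditioned libraries. Of these markers 12 were tested, with a median of -0.37. It was 0.44 with FPKM as deposited and 0.96 with 75th percentile scaling, or -0.03 and 0.31 relative to all genes tested. The median also turned to 0.18 without fear conditioned library 2 and to 0.31 for the same members in the single-end table. Slc1a2, the astrocytic glutamate transporter, was at 28.6 and 41.1 against 103 and 5.70, and at 3.48 and 11.2 against 14.1 and 36.0 in the single-end runs, so the groups were apart in that table alone. Aldoc, an aldolase of astrocytes, was apart on the lower side, at 30.3 and 60.8 against 10.7 and 20.4. Glul, the astrocytic glutamine synthetase, was at 56.1 and 36.8 against 36.4 and 46.6. Of 16 oligodendrocyte and precursor markers, 6 and 9 were above 0 in the home cage and 16 and 7 in the fear conditioned libraries, with sums of 8.71 and 20.5 against 60.7 and 22.9. The 15 microglia markers were above 0 in 4, 6, 15 and 4 cases and summed to 14.6 and 16.4 against 14.8 and 1.72. C1qa and Cx3cr1, defining markers, were at 0 in all libraries but fear conditioned library 1. Of 16 interneuron markers, 5 and 5 were above 0 in the home cage and 14 and 11 in the fear conditioned libraries, with sums of 1.16 and 15.4 against 21.1 and 25.1. Npy, the neuropeptide Y gene (chromosome 6, 49772728 to 49779504), was at 0 in both home cage libraries in both tables, at 10.1 and 2.56 in the paired-end and 1.14 and 2.23 in the single-end fear conditioned runs. With Cck and Cnr1, named after their values were seen, it made 3 of 6 tested members apart on the higher side (50%, against 11.1% of all genes). In the paired-end table Npy was also at 0 in both home cage soma libraries. It therefore met the minimum for testing only through fear conditioned values, and this share is no sign of a difference in interneuron markers. Pvalb was at 0 throughout, and Gad1 and Gad2 were not apart. The endothelial markers Cldn5 and Pecam1 were above 0 in fear conditioned library 1 alone. Ttr, the transthyretin gene of the choroid plexus, was at 115 and 130. in both runs of fear conditioned library 2 and at most at 0.311 elsewhere, and the haemoglobin gene Hbb-b1 was at 151 in home cage library 1 in the paired-end run and at 1.26 in its single-end run. Of the CA3, CA2 and dentate markers, Pcp4 was at 7.12 and 35.1 against 5.56 and 0.0832 and Prox1 at 2.59 and 0 against 0.794 and 0.07296. The part of these cells in the differences above was not tested.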

How the data were processed

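Both tables hold FPKM that the authors deposited, 1 table per kind of run, with the part up to the start of the 3′ UTR and the rest of the 3′ UTR in separate columns, per the file headers. Gene starts and ends come from the mm9 annotation the authors deposited. CASAVA 1.9, STAR 2.1.1d and Cufflinks 2.0.2 were used, per the submitters' processing notes, with no order, settings or strand option given. RNA was amplified with a Nugen Ovation V2 kit and libraries were made with a TruSeq DNA kit, per the labels' protocols. FPKM keep no depth, so depth was estimated from the spacing of low values (genes of 1 model of at least 1500 bases, tolerance 0.15 reads): 88.9 to 96.4% of low values lay near whole reads.

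Of 29848 genes, 870 (paired-end) and 428 (single-end) above 0 in all 8 immunoprecipitates set the median-ratio scaling. Genes whose scaled FPKM averaged 1 or more entered the test, on log2(scaled FPKM + 1), with limma 3.58.1 in R 4.3.3, over all 8 paired-end immunoprecipitates with 1 mean per layer and behaviour; tests were two-sided, with Benjamini-Hochberg adjustment over all genes tested. The procedure was run on simulated data with normal noise around each gene's mean. Those data lack the many values at 0 and the uneven depth of these libraries, so they do not show how it performs here. Genes were named by rule: per direction, the 12 largest differences without overlap in the paired-end table, with that sign also in single-end runs and a higher group averaging 10 or more, taken at an unadjusted p under 0.05 because none passed; the 6 with the widest gap between groups in both tables; the 2 most abundant members of each list and those apart in both tables at a mean of at least 10; and a few activity genes. Members, lists and rules were chosen with earlier results of these data known. Samples sharing a replicate number did not deviate together (r = -0.0168), so the numbers were not used as pairs. The alternatives were other pseudocounts, minimums and scalings, the single-end table, the rest of the 3′ UTR, the 4 dendrite libraries alone, a replicate block, robust moderation and each library left out. Some members of the lists are not reported here by name.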

Additional observations from a re-analysis of the deposited data

How the results depend on the processing

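In every alternative run 0 genes passed in dendrite by limma, whose smallest adjusted p over the alternatives was 0.0774 (without fear conditioned library 1) to 0.999 (replicate block). The replicate block gave 0 genes passing and 99 at an unadjusted p under 0.05, and robust moderation 0 and 94. The replicate numbers are not known to pair the samples, and the r of same-numbered deviations was -0.0168. For the dendrite minus soma difference 1 gene passed, in the rest of the 3′ UTR: Atp9a (log2 -17.65, SE 2.32, limma adjusted p 0.00321), named after its values were seen. Unadjusted counts, 96 as reported, were 147 and 59 with pseudocounts of 0.1 and 5, 479 with no minimum and 37 with a minimum of 5. They were 212 with FPKM as deposited, 215 with 75th percentile scaling, 49 with the 4 dendrite libraries only, 61 in the rest of the 3′ UTR and 83 to 284 with a library left out, where the lone library was assumed to vary like the other groups. Genes apart in both tables, 324 higher and 77 lower as reported, came to 495 and 30 with 75th percentile scaling. With FPKM as deposited 49 were lower, and with a gap of at least 1 there were 51 and 24. Leaving out a library, chosen after seeing the data, gave 557 to 736 higher and 147 to 432 lower, since fewer libraries are kept apart more easily. The single-end detection count of 1194 came to 746 at 3 estimated reads or more, also chosen after seeing the data. No named gene passed in any alternative run. The rule that named them fixes their sign in most alternatives, so agreement there is no sign of stability. The rest of the 3′ UTR, which the rule did not use, gave a value for 8 of the 31 named genes, and 5 of these had the opposite sign, all among the 6 lower ones: Msl1 1.53, Sept3 0.57, Anp32a 0.13, Prepl 1.63 and Lynx1 0.55; the cause was not tested. With 2 libraries a group, precision is limited by their number and by depths of 0.515 to 21.2 M.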
